A study of Mus musculus with 19 samples.

Results

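Myeloid paired immune receptors were followed here across 4 treatments of the mouse medial prefrontal cortex. The 10 genes were the 4 CD300 receptors Cd300a, Cd300c2, Cd300lf and Cd300lb, the C-type lectin receptors Clec4a1, Clec4a2 and Clec4a3, the immunoglobulin-like receptors Pirb and Lilrb4a, and the phosphatase gene Ptpn6. They were found by gene name among the 57010 genes of the deposited count table. They were selected on their counts in these libraries, with earlier results of the data known and no single comparison named, so their differences involving an LPS-exposed group, the interaction included, are given as a description with no p-value printed. Of the 10 genes, 9 passed the filter on low counts that left 17757 genes for testing, and Lilrb4a did not.

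Bulk poly(A) RNA was sequenced in 19 libraries from wild-type mice. Co-treated mice (n = 5) were given the celery phthalide sedanolide at 20 mg/kg by gavage for 8 days, and lipopolysaccharide (LPS), a bacterial cell wall component that activates innate immune cells, at 1 mg/kg intraperitoneally for 5 days, the gavage having begun 3 days ahead. LPS mice (n = 5) had the same injections with saline gavage, sedanolide mice (n = 5) had the same gavage with saline injections, and control mice (n = 4) had saline by both routes. All groups were thus gavaged and injected alike. Age, sex and strain background are not given in the sources used here, nor is it said whether each library came from a separate animal, and each p-value therefore reflects the spread among these libraries, which may be technical. The control library numbered 3 was not analysed here.

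Paired receptors are families of closely related cell surface proteins, encoded side by side, in which some members inhibit and others activate the cell. Inhibitory members carry ITIM motifs in their cytoplasmic tails, which recruit phosphatases such as SHP-1, the product of Ptpn6. Activating members lack these motifs and signal through adaptors with ITAM motifs, DAP12 (Tyrobp) and the Fc receptor gamma chain (Fcer1g), which engage the kinase Syk. In the brain such receptors are known from microglia, from border macrophages and from blood-derived myeloid cells.

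Library totals ran from 19.08 to 24.32 M counts. Cortical neuron genes were abundant in every library, with the vesicular glutamate transporter gene Slc17a7 at 1620 ± 159 counts per M counts (CPM) in co-treated, 1330 ± 233 in LPS, 1670 ± 173 in sedanolide and 1180 ± 294 in control libraries (SD). Some libraries also held olfactory bulb transcripts. Cdhr1, a mitral cell gene, reached 20 CPM or more in no co-treated library, in LPS replicates 2, 3 and 4, in sedanolide replicates 3 and 4, and in control replicates 1 and 5. These libraries are called bulb-rich and the others bulb-poor. Their makeup differed between the groups, and calls that were lost among the bulb-poor libraries are named beside the results. Calls of cell type markers were not checked in this way.

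Promoter sequence is shown for 4 members because they stand for the contrasts described below. Cd300lf and Cd300lb had lower counts under co-treatment than under LPS alone, their neighbour Cd300c2 was at similar levels in both groups, and Pirb had the most matches to the searched motifs. The windows are the 250 bases before the gene start, 5′ to 3′ on the gene's strand, from RefSeq on GRCm38.p6. Capitals mark GAGGAA, the core of a site for the myeloid factor PU.1, or its reverse complement TTCCTC.
Cd300lf, chr11:115133993-115134242, minus strand: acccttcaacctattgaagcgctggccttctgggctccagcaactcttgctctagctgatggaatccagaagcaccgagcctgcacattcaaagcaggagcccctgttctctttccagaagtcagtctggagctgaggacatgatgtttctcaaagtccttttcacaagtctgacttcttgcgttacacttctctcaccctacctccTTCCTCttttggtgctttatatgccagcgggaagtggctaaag
Cd300lb, chr11:114934372-114934621, minus strand: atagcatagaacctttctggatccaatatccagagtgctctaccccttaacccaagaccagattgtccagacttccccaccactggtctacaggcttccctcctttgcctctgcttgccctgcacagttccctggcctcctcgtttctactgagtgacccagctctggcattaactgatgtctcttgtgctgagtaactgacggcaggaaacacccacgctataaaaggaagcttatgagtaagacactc
Cd300c2, chr11:115001881-115002130, minus strand: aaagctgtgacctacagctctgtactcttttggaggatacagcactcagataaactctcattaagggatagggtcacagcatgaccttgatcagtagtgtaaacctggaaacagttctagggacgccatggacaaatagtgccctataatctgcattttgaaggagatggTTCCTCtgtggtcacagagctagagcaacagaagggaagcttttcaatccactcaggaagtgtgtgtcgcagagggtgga
Pirb, chr7:3720383-3720632, minus strand: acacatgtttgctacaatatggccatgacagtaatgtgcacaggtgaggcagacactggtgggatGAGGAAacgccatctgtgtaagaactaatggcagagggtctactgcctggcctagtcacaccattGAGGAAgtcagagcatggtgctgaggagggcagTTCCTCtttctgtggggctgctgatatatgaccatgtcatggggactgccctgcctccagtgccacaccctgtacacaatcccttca

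RefSeq windows were found for 9 of the 10 members, 10 windows in all because Clec4a3 had a pair. GAGGAA on either strand stood in 6 of the 10 windows, those of Cd300a, Cd300c2, Cd300lf, Clec4a1, Pirb and 1 of the Clec4a3 windows, against 23.3% of all 32851 windows of this length. An NF-kB consensus matched in Pirb and Ptpn6, against 4.77% of all windows. A C/EBP motif, TTGCNNAA, matched in Cd300a, against 9.56%, and a STAT motif, TTCNNNGAA, matched in Clec4a2, against 7.02%. An interferon response consensus matched in none of the 10 windows, against 2.98% of all. All 5 motifs were searched on both strands and may share letters with each other, and a match describes letters only.

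In the deposited table's coordinates, whose build is not given in the sources used here, the CD300 members lie on chromosome 11: Cd300a at 114780867 to 114795480, Cd300lb at 114813607 to 114825212, Cd300c2 at 114887547 to 114895058 and Cd300lf at 115007040 to 115024818. On chromosome 6, Clec4a1 lies at 122898807 to 122911578, Clec4a3 at 122929474 to 122946834, Clec4a2 at 123083387 to 123120958 and Ptpn6 at 124697670 to 124715677. Pirb lies on chromosome 7 at 3714408 to 3723390 and Lilrb4a on chromosome 10 at 51367052 to 51372707. Counts are sums over a gene, so the values speak for whole genes and not for isoforms.

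Levels of different genes were set side by side as CPM per kb of exon. In LPS libraries Cd300c2 led at 13.5 ± 1.8 CPM per kb (SD, n = 5), followed by Clec4a3 at 7.24 ± 1.39, Ptpn6 at 6.4 ± 0.782, Clec4a1 at 3.97 ± 0.833, Clec4a2 at 2.1 ± 0.211, Cd300a at 1.6 ± 0.319 and Pirb at 1.47 ± 0.34. Cd300lb, Cd300lf and Lilrb4a came last, at 0.378 ± 0.198, 0.299 ± 0.0936 and 0.0933 ± 0.046 CPM per kb. Clec4a3 and Ptpn6, Cd300a and Pirb, and Cd300lb and Cd300lf differed by less than the larger SD of each pair.

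In control libraries Cd300c2 also led, at 2.87 ± 0.48 CPM per kb (SD, n = 4), followed by Ptpn6 at 1.66 ± 0.209 and Clec4a3 at 1.21 ± 0.277. Clec4a2, Clec4a1 and Cd300a, at 0.575 ± 0.143, 0.494 ± 0.232 and 0.44 ± 0.102 CPM per kb, differed from their neighbours in this order by less than the larger SD. Pirb followed at 0.149 ± 0.0419, and Cd300lb, Lilrb4a and Cd300lf, at 0.0421, 0.0371 and 0.0238 CPM per kb, were likewise within their spread.

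**Figure D1:**
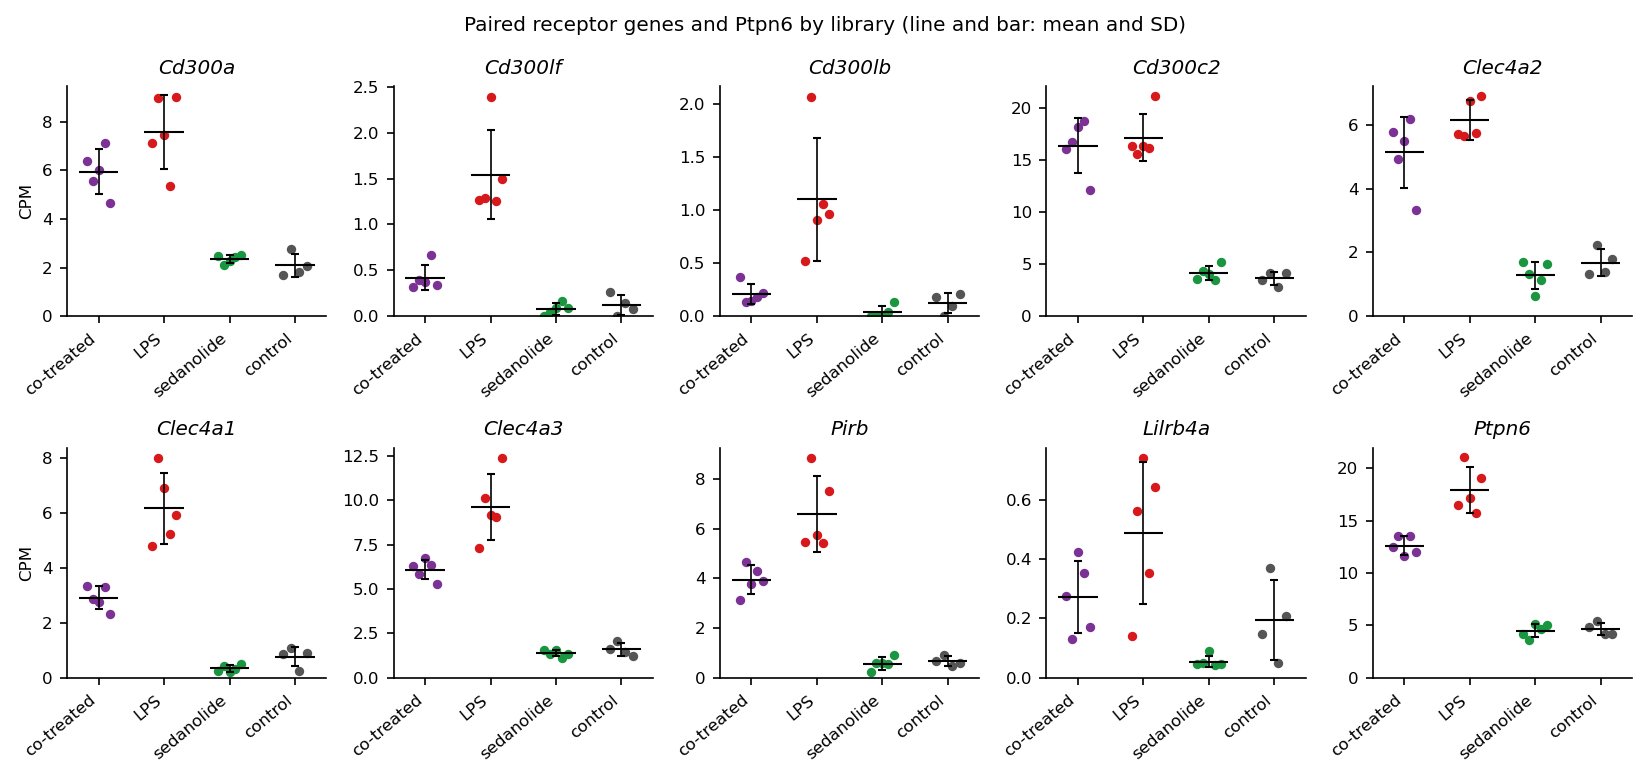
CPM of each member in each library, with co-treated, LPS, sedanolide and control libraries from left to right and bars at the group means. The LPS libraries of all members but Lilrb4a stand above every control library, while sedanolide and control libraries mostly overlap.

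LPS was compared with saline to see how the members' levels differed after endotoxin. The 9 members tested were higher in LPS than in control libraries by 1.86 to 3.55 on the log2 scale, with a median of 2.58, against a median of -0.00339 over all genes tested. All 9 were called higher (Benjamini-Hochberg adjusted p under 0.05 in edgeR's quasi-likelihood test), against 8.47% of all genes tested. Every LPS library stood above every control library for all 9, against 7.93% of all genes tested. Because these contrasts were known when the genes were picked, the counts support nothing further. In bulk tissue, more cells of a type and more RNA per cell cannot be told apart.

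Both inhibitory CD300 receptors were higher in LPS libraries. Cd300a, which binds phosphatidylserine and phosphatidylethanolamine and carries ITIMs, was at 7.14, 8.96, 7.44, 5.34 and 9 CPM in the LPS libraries, against 1.7, 2.78, 1.82 and 2.05 CPM in controls, a log2 difference of 1.86 ± 0.18 (SE). Cd300lf, an inhibitory receptor for phosphatidylserine and ceramide known in the mouse as the norovirus receptor, was at 1.27, 1.29, 2.39, 1.26 and 1.5 CPM in LPS libraries, against 0.259, 0, 0.147 and 0.0835 CPM in controls. Its log2 difference was 3.55 ± 0.48, at control levels of only a few counts per library. Cd300lf and Cd300lb passed the filter through the LPS group alone, so they had to differ there.

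The activating members of the cluster were higher as well. Cd300c2, which signals with the Fc receptor gamma chain and DAP12 in the mouse, was at 16.4, 15.6, 16.4, 16.2 and 21.2 CPM in LPS libraries, against 3.51, 4.13, 2.85 and 4.13 CPM in controls. The log2 difference was 2.23, with a 95% interval of 1.9 to 2.56. Cd300lb, a DAP12-linked receptor, was at 0.517 to 2.07 CPM in LPS libraries, against 0 to 0.209 CPM in controls, a log2 difference of 3.06 ± 0.58. The groups did not overlap for any of these 4 receptors.

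The C-type lectin receptors and Pirb were also higher. Clec4a2, the mouse DCIR, which has an ITIM, differed by 1.87 ± 0.24 on the log2 scale, at 5.64 to 6.91 CPM in LPS libraries and 1.33 to 2.23 CPM in controls. Its relatives Clec4a1 and Clec4a3, encoded beside it, differed by 2.98 ± 0.29 and 2.58 ± 0.17. Clec4a1 was at 4.79, 8.01, 6.91, 5.24 and 5.95 CPM in LPS libraries, against 0.85, 1.07, 0.246 and 0.919 CPM in controls. Pirb, an ITIM receptor for major histocompatibility class I that also binds myelin-associated inhibitors on neurons, was at 5.45, 8.83, 5.76, 5.4 and 7.5 CPM in LPS libraries, against 0.665, 0.927, 0.491 and 0.585 CPM in controls. That is a log2 difference of 3.29 ± 0.27, or 9.8-fold.

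Ptpn6, the phosphatase that these inhibitory receptors share, was at 16.5, 21.1, 17.2, 15.7 and 19.1 CPM in LPS libraries, against 4.8, 5.42, 4.22 and 4.18 CPM in controls. Its log2 difference was 1.94, with a 95% interval of 1.69 to 2.2. Lilrb4a, an inhibitory receptor known from mast cells and myeloid cells as gp49B, was at 0.141, 0.56, 0.74, 0.353 and 0.643 CPM in LPS libraries, against 0.148, 0.371, 0.0491 and 0.209 CPM in controls. These groups overlapped, at 53 counts over the LPS group and 18 over the controls. Without the filter its log2 difference was 1.29 ± 0.49 and was not called. Without control replicate 2, the highest control library, Lilrb4a passed the filter and was called higher, at 1.78 ± 0.52, and without any other single control library it was tested and not called.

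**Figure D2:**
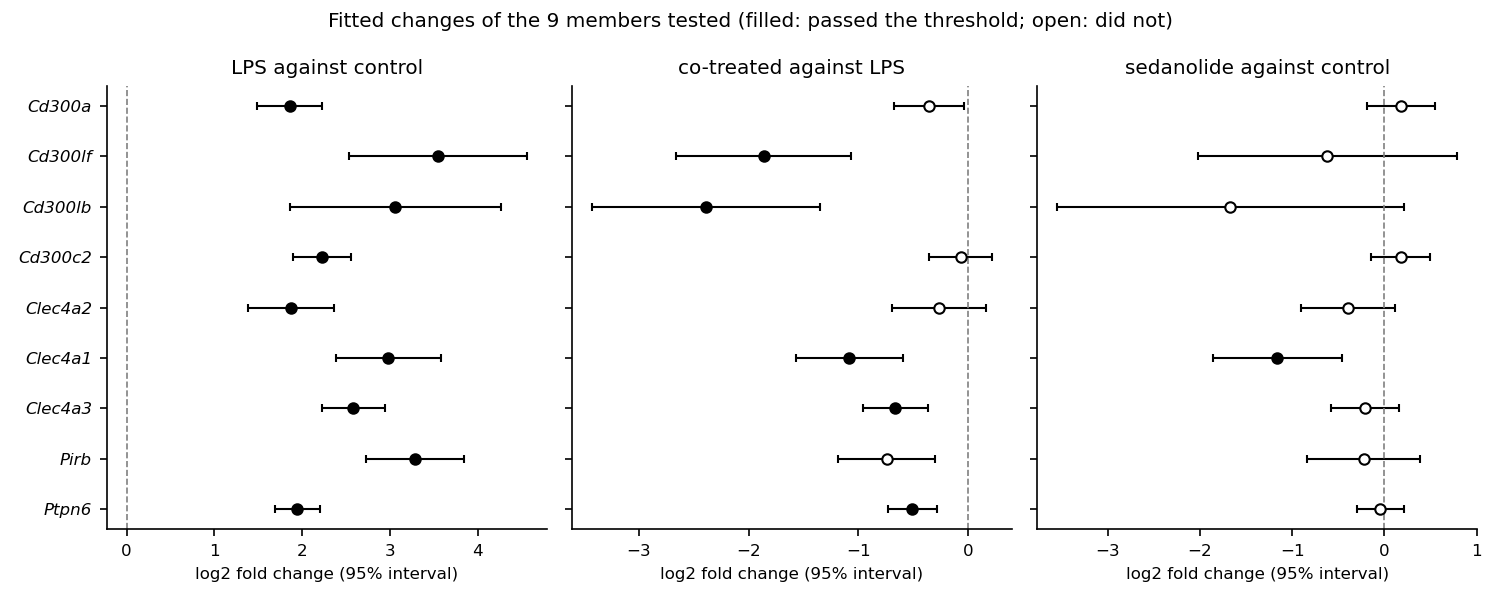
Log2 fold change of each tested member in comparisons between groups, LPS against control, co-treated against LPS and sedanolide against control among them, points with 95% intervals from edgeR's quasi-likelihood fit. All 9 intervals lie above 0 for LPS against control, whereas those for co-treated against LPS run from near 0 in Cd300c2 to -2.39 in Cd300lb.

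Markers of several immune cell types were higher in LPS libraries as well. The summed level of 13 neutrophil markers ran from 73 to 78.8 CPM in LPS libraries, against 9.02 to 15 CPM in controls, that of 8 monocyte markers from 23 to 41.5 CPM, against 8.79 to 15.9 CPM, and that of 13 microglial markers from 978 to 1190 CPM, against 515 to 700 CPM. Border macrophage sums ran from 66.9 to 139 CPM in LPS libraries, against 24 to 55 CPM in controls, and lymphocyte and NK cell sums from 30.3 to 45.9 CPM, against 10.5 to 15.8 CPM. Of the markers tested, 10 of 11 neutrophil, 8 of 8 monocyte, 8 of 13 microglial, 2 of 10 border macrophage and 10 of 13 lymphocyte and NK cell genes were called higher. The share over all genes was 8.47%. Some of the markers, 3 neutrophil, 3 monocyte, 1 border macrophage and 6 lymphocyte and NK cell genes, were tested only because of their counts in the LPS group. Lyve1, 1 of the 10 border macrophage genes, was called lower, at -1.14 on the log2 scale. Of 6 dendritic cell genes none was called higher and 1, Cd209a, was called lower, at -2.18. Over all 17757 genes, 434 were called lower. Ly6c2, a classical monocyte marker, was at 0.572 ± 0.106 CPM in LPS and 0.144 ± 0.0524 CPM in control libraries, and Cxcr2, a neutrophil chemokine receptor, at 2.27 ± 0.462 and 0.0947 ± 0.07 CPM. The part of these cells in the members' levels was not tested.

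**Figure D3:**
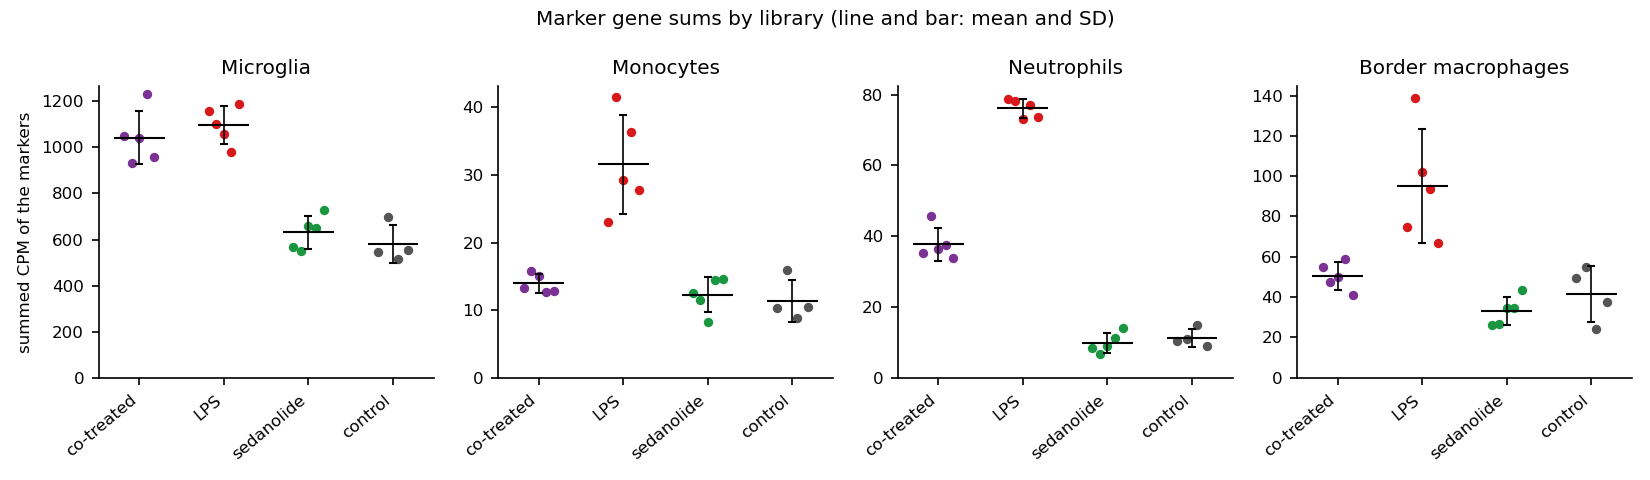
Summed CPM of the marker genes of microglia, monocytes, neutrophils and border macrophages in each library, with co-treated, LPS, sedanolide and control from left to right. Microglial sums overlap between co-treated and LPS libraries, whereas neutrophil sums are 33.9 to 45.7 CPM in co-treated and 73 to 78.8 CPM in LPS libraries.

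The members were also set against the mean log2 level of the microglial markers, and on this scale their means were higher in LPS than in control libraries. The log2 level of Cd300c2 minus that index was -1.62 ± 0.11 in LPS and -3.06 ± 0.2 in control libraries (SD). For Ptpn6 it was -1.56 ± 0.17 in LPS and -2.71 ± 0.2 in control libraries, and for Pirb -3.01 ± 0.3 in LPS and -5.38 ± 0.23 in control libraries. In co-treated libraries Cd300c2 was at -1.66 ± 0.15, Ptpn6 at -2.02 ± 0.15 and Pirb at -3.68 ± 0.28. The index itself was 5.72 ± 0.12 in LPS and 4.94 ± 0.23 in control libraries. It averages markers of which 8 of 13 were called higher in LPS libraries, and it is not a count of cells. The part of microglia in the members' levels was not tested.

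**Figure D4:**
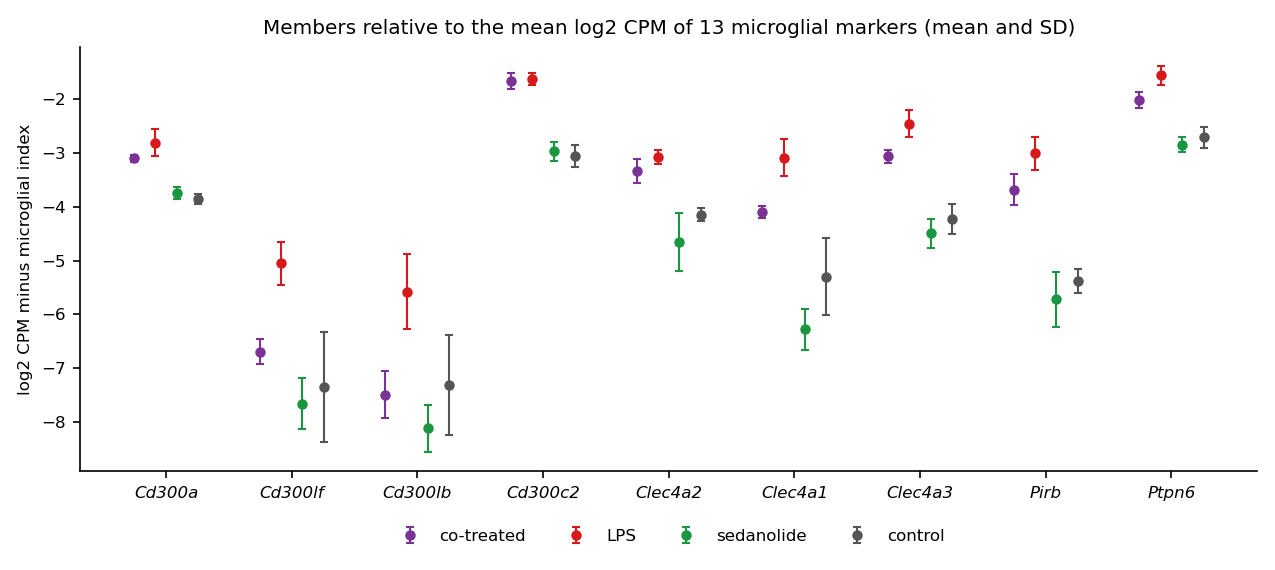
Log2 CPM of each tested member minus the mean log2 CPM of 13 microglial markers, points for group means and bars for the SD over libraries, with co-treated, LPS, sedanolide and control from left to right. The LPS means lie above the control means for all 9 members, Cd300c2 at -1.62 against -3.06.

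Sedanolide given before and with LPS was compared with LPS alone. Of the 9 members tested, co-treatment gave lower counts than LPS for 5, namely Cd300lf, Cd300lb, Clec4a1, Clec4a3 and Ptpn6, against 1.68% of all genes called lower. Cd300lf and Cd300lb were tested only because of their counts in the LPS group, and without them the count was 3 of 7. The median over the 9 log2 difference was -0.66, against -0.0127 over all genes tested. Every co-treated library stood below every LPS library for 6 members, those 5 and Pirb, against 4.6% of all genes. The other 4, Cd300a, Cd300c2, Clec4a2 and Pirb, did not pass the test.

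Cd300lf was at 0.321, 0.396, 0.376, 0.663 and 0.345 CPM in co-treated libraries, against 1.27 to 2.39 CPM in LPS libraries, a log2 difference of -1.86 ± 0.38. Cd300lb was at 0.132 to 0.367 CPM in co-treated libraries, against 0.517 to 2.07 CPM in LPS libraries, a log2 difference of -2.39 ± 0.5. For both receptors every co-treated library lay below every LPS library, and for Cd300lb the co-treated and control ranges overlapped. Cd300a, the inhibitory receptor at the other end of the cluster, was at 4.65 to 7.12 CPM in co-treated and 5.34 to 9 CPM in LPS libraries, and its interval of -0.67 to -0.03 did not pass the adjusted test.

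Cd300c2 was at 16.1, 16.7, 18.2, 18.8 and 12.1 CPM in co-treated libraries, against 15.6 to 21.2 CPM in LPS libraries. Its log2 difference was -0.06, with a 95% interval of -0.35 to 0.22, and the groups overlapped. Clec4a2 behaved likewise at -0.26, with an interval of -0.69 to 0.17. Clec4a1 was at 3.35, 2.86, 2.77, 3.32 and 2.33 CPM in co-treated libraries, below the lowest LPS library at 4.79 CPM, a log2 difference of -1.08 ± 0.23. Clec4a3 differed by -0.66 ± 0.14, at 5.26 to 6.72 CPM in co-treated and 7.33 to 12.4 CPM in LPS libraries.

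Ptpn6 was at 12.5, 13.5, 11.6, 13.5 and 12 CPM in co-treated libraries, against 15.7 to 21.1 CPM in LPS libraries, a log2 difference of -0.51 ± 0.11. Pirb was at 3.12 to 4.66 CPM in co-treated and 5.4 to 8.83 CPM in LPS libraries, and its difference of -0.74 ± 0.21 was not called although the groups did not overlap. Lilrb4a was at 0.132 to 0.423 CPM in co-treated and 0.141 to 0.74 CPM in LPS libraries. Without the filter its difference was -0.84 ± 0.44 and was not called.

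Without LPS replicate 2 only Cd300lf was called, and the number called was 2 without co-treated replicate 1, 3 or 5 and 3 without co-treated replicate 2. Among the bulb-poor libraries, 5 co-treated and LPS replicates 1 and 5, no member was called, and the differences were -1.69 for Cd300lf, -1.79 for Cd300lb, -0.86 for Clec4a1, -0.68 for Clec4a3 and -0.48 for Ptpn6. In those libraries 35 genes were called over the whole table, against 350 in all libraries. Marker sums moved too. Neutrophil sums were 33.9 to 45.7 CPM in co-treated and 73 to 78.8 CPM in LPS libraries. Called lower were 7 of 11 neutrophil, 5 of 8 monocyte, 5 of 10 border macrophage and 1 of 13 lymphocyte and NK cell markers. The share over all genes was 1.68%. None of 13 microglial and 6 dendritic cell markers was called lower. Without the markers that passed the filter only through the LPS group, the counts were 5 of 8 neutrophil, 3 of 5 monocyte, 5 of 9 border macrophage and 1 of 7 lymphocyte and NK cell markers. Microglial sums were 934 to 1230 CPM in co-treated and 978 to 1190 CPM in LPS libraries, and border macrophage sums were 41.1 to 59.1 CPM in co-treated and 66.9 to 139 CPM in LPS libraries. The marker calls were not tested among the bulb-poor libraries. In LPS replicates 1 and 5, the bulb-poor ones, border macrophage sums were 74.8 and 66.9 CPM, the lowest of the LPS group. Monocyte sums there were 23 and 27.8 CPM, also the lowest, and neutrophil sums were 78.8 and 73.7 CPM. The part of these cells in the members' differences was not tested.

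Sedanolide alone was compared with saline. Of the 9 members tested, 1, Clec4a1, was called lower and none higher, against 2.11% of all genes called lower and 5.31% called in either direction. It was at 0.229, 0.44, 0.222, 0.336 and 0.502 CPM in sedanolide libraries, against 0.85, 1.07, 0.246 and 0.919 CPM in controls, a log2 difference of -1.16 ± 0.33 with an adjusted p of 0.0484. The groups overlapped through control replicate 4, and the call was lost in 14 of the 19 fits that each left out a library. In bulb-poor libraries the difference was -0.79 with an adjusted p of 0.546. The other 8 did not pass the test, with adjusted p from 0.255 to 0.835. Ptpn6, for example, had 4.16, 3.57, 5.11, 4.62 and 5.02 CPM in sedanolide libraries, and its difference of -0.05 had a 95% interval of -0.3 to 0.21. Cd300lb had an interval of -3.55 to 0.21 at counts near 0.

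The interaction, the sedanolide difference under LPS minus that under saline, was fitted on the same libraries. By edgeR's quasi-likelihood fit none of the 9 members was called, against 0.586% of all genes. DESeq2 gave an adjusted value for 7 members and called none. For Ptpn6 the interaction was -0.46, with a 95% interval of -0.8 to -0.12 that is not adjusted for the number of genes tested. Against controls, the co-treated libraries were higher for 8 of 9 members, all but Cd300lb, against 6.38% of all genes. The differences ran from 1.44 in Ptpn6 to 2.55 in Pirb. Cd300lf, at 1.68 ± 0.53, was called in 9 of 26 alternatives, not among them the bulb-poor libraries, where it was at 2.45.

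Between Cd300a and Cd300lf, at positions 114780867 to 115024818 of chromosome 11, lie 11 protein-coding genes, of which 6 were tested. All 6 were higher in LPS than in control libraries, against 8.47% of all genes called higher. Cd300lb, Cd300ld, Cd300e and Cd300lf, 4 of the 6, were called lower under co-treatment than under LPS alone, against 1.68% of all genes. These 4 were tested only because of their counts in the LPS group, whereas Cd300a and Cd300c2 reached the filter in every group, so the split is a description. Cd300ld, an activating receptor, is the gene beside Cd300c2. It was at 0.188 ± 0.0647 CPM in co-treated and 1.93 ± 0.653 CPM in LPS libraries, a log2 difference of -3.33 ± 0.49, while Cd300c2 differed by -0.06. Cd300e was at 0.305 ± 0.0383 CPM in co-treated, 2.13 ± 0.649 in LPS and 0.0551 ± 0.0256 CPM in control libraries. Its interaction was -4.04 ± 0.67, and -3.65 without a call in bulb-poor libraries.

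**Figure D5:**
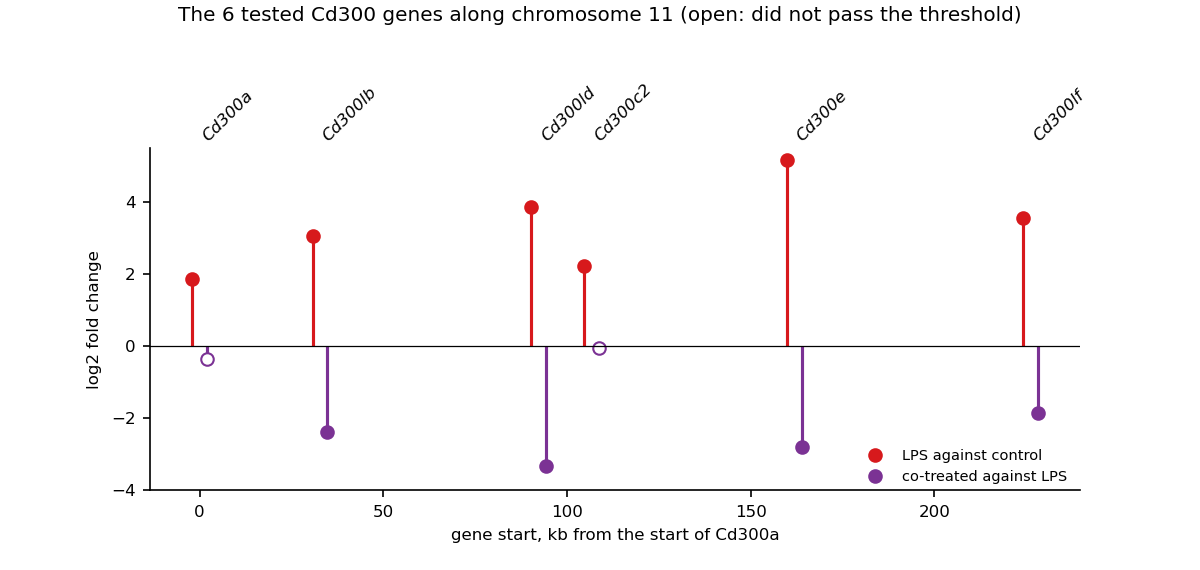
Log2 fold change of the 6 tested Cd300 genes of the chromosome 11 cluster, in gene order, for co-treated against LPS and for LPS against control. Cd300a and Cd300c2 lie near 0 for co-treated against LPS, whereas the other 4 lie at -1.86 or lower.

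Between Clec4a1 and Clec4a2 on chromosome 6, 3 of 5 genes were tested, all of them members. All 3 were higher in LPS than in control libraries, against 8.47% of all genes called higher. In co-treated against LPS libraries 2 were lower, against 1.68% of all genes. Within 500 kb of Pirb on chromosome 7, 21 of 28 genes were tested. Of these 21, 2 were higher in LPS libraries, Pirb itself and Lair1, an ITIM receptor for collagen. That is near the share of 8.47% over all genes. Near copies can share reads, and whether multiply mapped reads were counted is not given in the sources used here. Lilrb4b, the copy nearest to Lilrb4a, was higher in LPS than in control libraries by 3.02 ± 0.66 on the log2 scale and was tested only because of its counts in the LPS group. The Pira genes counted, Lilra6 and Clec4a4 did not pass the filter, with at most 11 counts in a library.

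Of 24 other inhibitory receptors and their relatives listed, 18 passed the filter, 1 of them (Lilrb4b) only through the LPS group. Not all of the 24 carry an ITIM, Siglec1 and Lilrb4b among them, so the counts are not counts of ITIM receptors. Of the 18, 16 rose in LPS against control libraries and none fell, against 8.47% of all genes called higher, with a median of 1.9 on the log2 scale. The lists too were drawn up with earlier results of these data known. The adjusted p-values of edgeR's test printed for their genes, here and below, are therefore a description and no independent support. Examples, picked for their small p, are Siglece at 2.02 (adjusted p 1.58e-07), Pilra at 3.2 (3.99e-07) and Cd22 at 3.53 (1.17e-06). In co-treated against LPS libraries 3 fell, Siglec1 at -2.22 (adjusted p 0.0296), Clec12a at -1.62 (0.0325) and Lilrb4b at -2.23, against 1.68% of all genes called lower, with a median of -0.2. Each of these calls was lost in 10 alternatives. Without LPS replicate 2, Siglec1 was at -1.86 and Clec12a at -1.58, and in bulb-poor libraries they were at -1.58 and -1.33, with no call. Cd22, a Siglec of B cells also reported in microglia, was at 3.14 ± 0.657 CPM in co-treated and 3.4 ± 1.1 CPM in LPS libraries. In sedanolide against control libraries none of the 18 was called.

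Of 41 activating partners and relatives listed, 36 were in the table and 16 passed the filter, 8 of them only through the LPS group, so that these 8 had to be high there. Of the 16, 15 were called higher in LPS than in control libraries, against 8.47% of all genes, and of the 8 that did not depend on the LPS group 7 were. Trem2, a microglial lipid receptor that passed in every group, rose by 1.48 (adjusted p 6.1e-07). In co-treated against LPS libraries 6 were called lower, against 1.68% of all genes, and all 6 were among the genes tested only because of the LPS group, so no p-value is given for them. Cd300e was at -2.79, Treml4 at -3.03 and Clec4e, which binds the mycobacterial cord factor, at -3.34 on the log2 scale. None of the other 8 was called lower. Trem2 was at 48.9 ± 8.98 CPM in co-treated and 45.4 ± 6.46 CPM in LPS libraries. None of the 16 was called in sedanolide against control libraries.

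Of 25 adaptors, kinases and phosphatases, none passed the filter only through the LPS group. Fgr and Hcst needed the LPS or co-treated libraries, both given LPS, and so had to be high under it. In LPS against control libraries 18 of the 25 rose, against 8.47% of all genes, with a median of 1.09. The adaptor genes Tyrobp and Fcer1g differed by 1.39 (adjusted p 1.89e-05) and 1.46 (1.06e-06). In co-treated against LPS libraries they differed by 0.04 (0.916) and -0.12 (0.629). In that comparison the kinase genes Fgr, at -1.45 (0.0159), and Syk, at -0.58 (0.0356), fell, and the other 23 were not called. Neither passed the test without LPS replicate 2, at -1.32 for Fgr and -0.52 for Syk, or in bulb-poor libraries, at -1.04 for Fgr and -0.4 for Syk. In sedanolide against control libraries 2 of the 25 were called higher and 1 lower, against 5.31% of all genes called in either direction. Inpp5d, which encodes the lipid phosphatase SHIP1, rose by 0.64 (0.0164), at 22.4 ± 2.51 CPM in sedanolide and 14.4 ± 3.34 CPM in control libraries. That call was lost without control replicate 5 at 0.59 and in bulb-poor libraries at 0.46. Cbl was at 0.33 (0.0492) and Ptpn18 at -1.24 (0.0446), calls lost in 19 and 18 of 28 alternatives. In the interaction 1 of the 25, Inpp5d, was called, at -0.88, against 0.586% of all genes. This call was lost in 13 of 26 alternatives. Of 13 genes for ligands of paired receptors, not only of the members, 4 rose in LPS libraries, against 8.47% of all genes. Among them were the class I genes H2-K1, by 2.01 (2.4e-08), and H2-D1, by 2.18 (6.68e-08), ligands of PIR-B. In co-treated against LPS libraries 1 of the 13 fell, against 1.68% of all genes called lower. It was Fn1, which encodes fibronectin, at -1.13 (0.0106), and in bulb-poor libraries it was at -0.87 without a call.

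The tested genes whose levels ran most like the members' mean were Ptprc, which encodes the leukocyte phosphatase CD45, with an SD of the log2 difference of 0.201 over the 19 libraries, Rab32 (0.206), Lrrc25 (0.272), Myo1f (0.274) and H2-K1 (0.274). The median over all other tested genes was 1.217. For single members the most alike genes were Pik3ap1 for Ptpn6 (0.15), Lcp1 for Cd300a (0.152), Ms4a6d for Clec4a2 (0.201), Cd14 for Cd300c2 (0.216), Ptprc for Clec4a3 (0.274), Igsf6 for Pirb (0.331) and Lyz2 for Clec4a1 (0.351). Cd300lb and Cd300lf, which had the lowest counts, were most like Plbd1 (0.505) and Igkc (0.521). These values share library depth and the same treatment differences.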

How the data were processed

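Bulk RNA-seq counts of 19 libraries were analysed. The deposited table holds whole-number counts per gene, which the authors made from reads of a stranded poly(A) kit. The submitters' processing notes name fastp, HISAT2, StringTie, RSEM and DESeq2 without versions or roles. Genome build, counting settings and use of strand are not given in the sources used here. The members and gene lists were chosen with earlier results of these data known.

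edgeR 4.0.16 (R 4.3.3, limma 3.58.1) was run on all libraries with TMM factors (0.938 to 1.11), its expression filter (minimum count 10), 1 mean per group and robust quasi-likelihood tests. The Benjamini-Hochberg adjustment ran over 17757 genes, with calls at 0.05. CPM used filtered library sizes and TMM factors, and log2 CPM a prior count of 2. A gene was said to pass only through the LPS group where fewer than 4 libraries outside it reached the filter's count. The fit was tested on simulated data. Named list genes were at most 5 per list and comparison, those with the smallest p, beside others named for their role after their values were seen. Alternatives were other factors, filters, DESeq2 1.42.0, fewer groups, a replicate block, bulb-poor libraries, a bulb covariate and leaving out each library. Bulb-rich libraries alone were added after seeing the data. No replicate libraries agreed within counting noise.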

Additional observations from a re-analysis of the deposited data

Results flagged for a closer look

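In 4 of the 40 member and group sets, the library at 1 end stood far from the others, and chance flags about 1 set in 20. Cd300lf was at 0.663 CPM in co-treated replicate 4, with the nearest co-treated library at 0.396 CPM, and at 2.39 CPM in LPS replicate 3, with the nearest LPS library at 1.5 CPM. Cd300c2 was at 21.2 CPM in LPS replicate 5, with the nearest LPS library at 16.4 CPM. Lilrb4a was at 0.0889 CPM in sedanolide replicate 3, with the nearest sedanolide library at 0.0489 CPM, levels of a few counts.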

How the results depend on the processing

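The count of members called in LPS against control libraries was 9 to 10 when single libraries were left out, and was within 1.5 times of 9 in every alternative. In co-treated against LPS libraries 5 members were called, and 1 with the replicate block, 0 in bulb-poor libraries and 1 with the bulb covariate, and 1 to 6 when single libraries were left out. No pairing by replicate number was seen over all tested genes: same-numbered libraries had a median correlation of -0.05, with 5 of 27 pairs over 0.1. Libraries with different numbers ran from -0.688 to 0.731, so a weaker pairing by number could go unseen and is not excluded. In sedanolide against control libraries 1 was called, and 0 without the filter, with only the groups compared, with the replicate block, in bulb-poor or bulb-rich libraries or with the bulb covariate, and 0 to 1 when single libraries were left out. In co-treated against control libraries 8 were called, and 7 to 8 when single libraries were left out. The cause was not tested.

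Directions turned in these values. Leaving out single libraries gave -0.12 to 0.03 for Cd300c2 in co-treated against LPS, -1.09 to 0.09 for Cd300lf and -0.1 to 0.03 for Ptpn6 in sedanolide against control, and, in the interaction, -1.06 to 0.59 for Cd300lb, -0.05 to 0.25 for Clec4a2 and -0.1 to 0.36 for Clec4a1. Bulb-rich libraries gave -0.03 for Cd300c2 and 0.1 for Ptpn6 in sedanolide against control. Bulb-poor libraries gave -0.04 for Clec4a2 and -0.07 for Clec4a1 in the interaction.

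Over all genes, calls ran from 761 to 2788 around 1938 in LPS against control, from 35 to 901 around 350 in co-treated against LPS, from 0 to 1860 around 943 in sedanolide against control, from 615 to 2907 around 1965 in co-treated against control, and from 20 to 440 around 104 in the interaction. Low counts limit Lilrb4a, Cd300lf and Cd300lb.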
